A study of Solanum lycopersicum with 2 samples.

Results

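The AUX/LAX auxin influx carriers of tomato were followed through single protoplasts of the root tip. The members were the 5 identifiers listed as LAX1 to LAX5 (Solyc09g014380, Solyc01g111310, Solyc11g013310, Solyc10g055260 and Solyc10g076790), and all 5 were present among the 34716 entries of the count tables. Each identifier lies on the chromosome that RefSeq gives for the LAX gene of the same number (9, 1, 11, 10 and 10), which checks the numbering only by chromosome. Both libraries came from a single group, untreated wild-type M82 seedlings, whose primary roots were cut 3 cm from the tip at 7 days after sowing and digested with cell wall enzymes. Each library pooled primary roots of many seedlings, so it gives an average over plants, and no genotype, treatment or time was compared.

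AUX/LAX proteins sit in the plasma membrane and carry the auxin indole-3-acetic acid into the cell together with protons. PIN proteins carry auxin out, and the placing of both kinds of carrier steers auxin through the root. In Arabidopsis, AUX1 is known for root gravitropism, LAX3 for lateral root emergence and LAX2 for vascular patterning. The tomato numbers were not matched to those Arabidopsis genes here, so the roles of the individual tomato copies are not given.

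The libraries held 12481 (replicate 1) and 10253 (replicate 2) barcodes, of which 12403 and 10231 cells were kept, with medians of 8065 and 3800 UMIs per cell. A UMI (unique molecular identifier) counts 1 captured transcript, read at its 3′ end whatever the transcript's length, and levels are given as counts per 1000000 UMIs (CPM). The libraries shared 38 barcodes. The cells fell into 27 clusters, numbered by size and built without the LAX genes, each with between 46 and 1193 cells of a library. All 20 exodermis markers, which the study chose on these libraries, were highest in cluster 21, called exodermis-like here. The other clusters keep their numbers because fewer than 3 fixed markers of a cell type were highest in any of them. The markers are identifiers that the files and the reference table do not annotate. Of the 3 fixed for the xylem, 2 were highest in cluster 24, at 470 and 712 CPM and at 428 and 717 CPM in replicates 1 and 2, and both identifiers fixed for the endodermis were highest in cluster 14.

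The copies differed widely in abundance, and the order was the same in both libraries. LAX1 was the most abundant, with 20165 and 11139 UMIs, or 108 and 137 CPM, in replicates 1 and 2. LAX3 followed with 8118 and 6071 UMIs (43.4 and 74.8 CPM). LAX5 had 1008 and 722 UMIs (5.39 and 8.90 CPM). These 3 copies stood in the same order in each library, and their ranges did not overlap. LAX2 had 729 and 299 UMIs (3.90 and 3.69 CPM), and LAX4 was rare, with 48 and 14 UMIs (0.257 and 0.173 CPM). No neighbours in this order had overlapping ranges over the libraries. LAX1 thus held 64.1% ± 4.25 of all AUX/LAX UMIs and LAX3 30.1% ± 4.44 (SD, n = 2 libraries). LAX5 held 3.65% ± 0.428, LAX2 2.03% ± 0.556 and LAX4 0.118% ± 0.0586.

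LAX1 UMIs were seen in 51.0% of replicate 1 cells (95% Clopper-Pearson interval 50.1% to 51.9%) and 35.1% of replicate 2 cells (34.1% to 36.0%). After each cell was thinned to 2000 UMIs, with the 10274 and 6990 cells at least that deep, the share was 21.1% in each library. The share of cells with LAX1 thus differed between the libraries before thinning but was equal to 3 digits at matched depth. LAX3 UMIs were seen in 9.72% and 13.0% of cells, and in 5.17% and 9.27% after thinning. LAX5 was seen in 6.61% and 5.31% of cells, LAX2 in 3.22% and 1.75%, and LAX4 in 0.242% and 0.127%. Each cell with a LAX3 UMI held 6.73 and 4.56 of them on average, more than for any other copy, against 3.19 and 3.11 for LAX1, 1.83 and 1.67 for LAX2 and 1.23 and 1.33 for LAX5. These intervals cover counting error only.

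All 5 copies differed among clusters (edgeR quasi-likelihood F test with the library as a block, Benjamini-Hochberg adjusted p between 2.54e-24 for LAX3 and 1.08e-05 for LAX4), but 95.7% of the 18013 genes tested did so. Each cluster was then set against the mean of the other 26 on the log2 scale. Of the 135 pairs of copy and cluster, 33 (24.4%) were called higher and 31 (23.0%) lower, where all genes together had 22.3% and 14.9%. LAX1 was higher in 10 clusters and lower in 8, LAX2 in 9 and 6, LAX3 in 5 and 12, LAX5 in 6 and 5, and LAX4 in 3 and 0. In 2 of the 64 calls, LAX1 in cluster 16 and LAX2 in cluster 10, a library went against the call. The clusters were made from other genes of the same cells, and the clusters followed below were picked because a copy was highest there, and the p-values allow for neither. They measure how unevenly the clusters differed between the 2 libraries once the library block was taken out. That spread was pooled over the 27 clusters, with 26 residual degrees of freedom in the design. LAX4 had no UMI in either library in 20 of the 27 clusters, so its p-values rest on fewer clusters. The clusters of a library come from the same cell suspension, so these are not independent replicates. The spread may be technical, since no label says that the seedlings were grown separately.

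**Figure D1:**
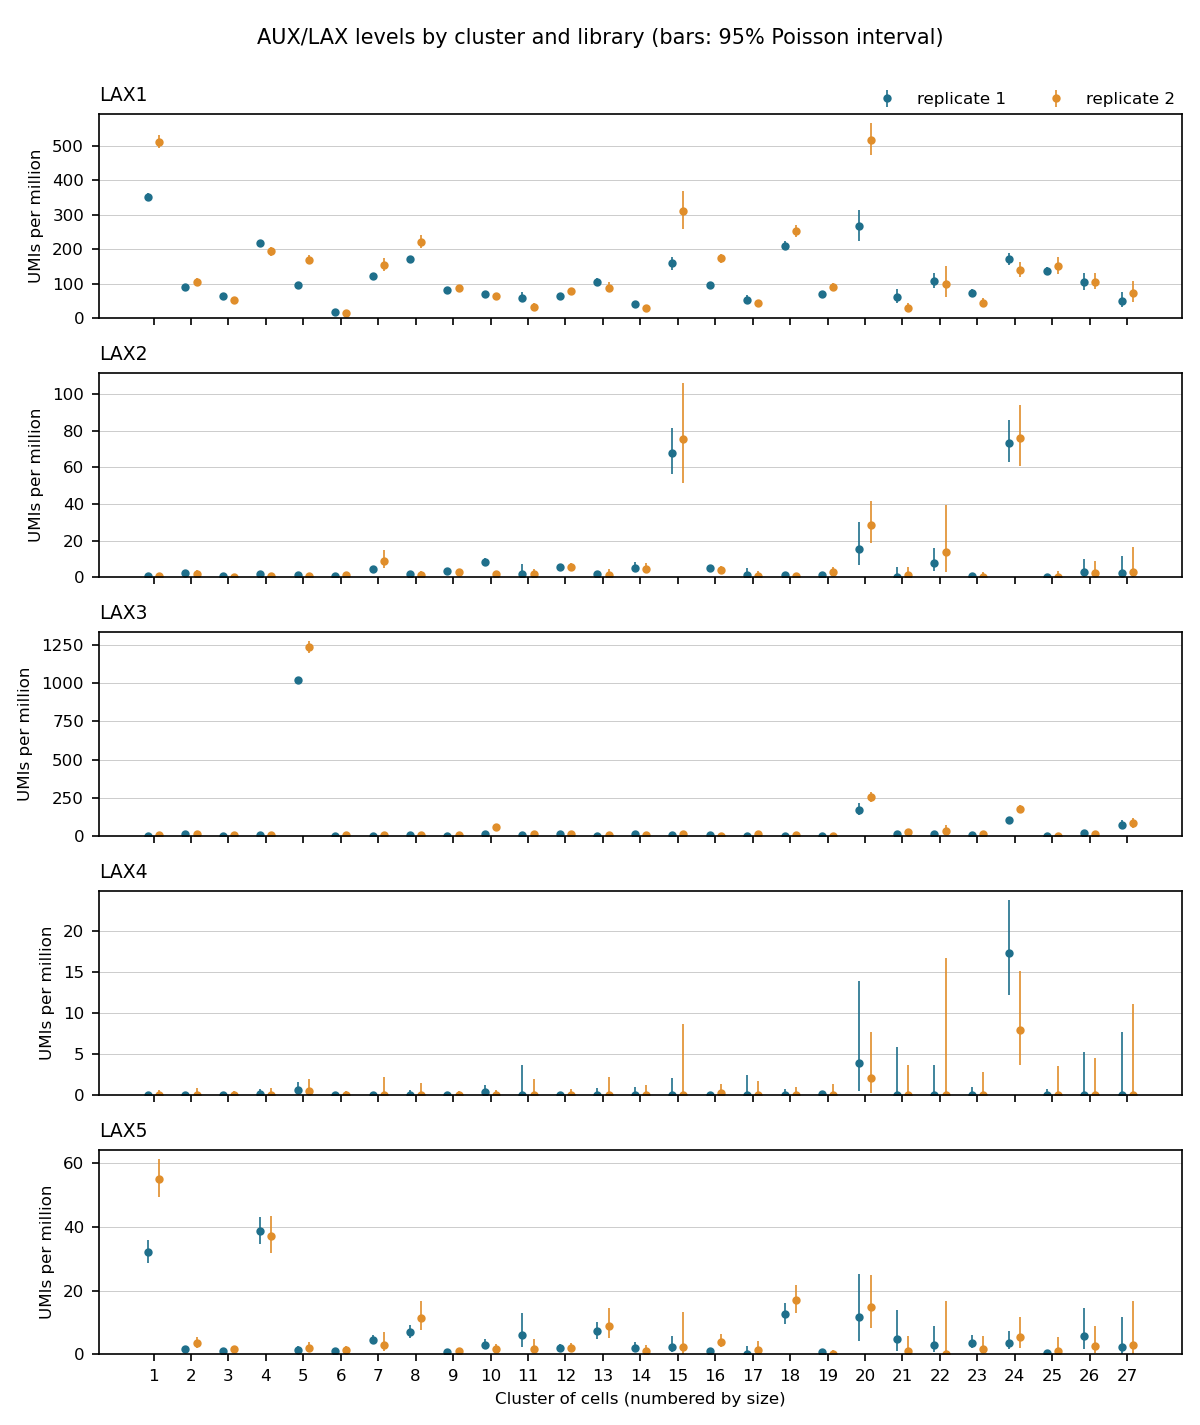
Level of each AUX/LAX copy (CPM, linear axes that differ between panels) in the 27 clusters of cells, for replicate 1 (left point of each pair) and replicate 2, with 95% Poisson intervals for counting error. LAX1 was above 0 in every cluster, LAX2 peaked in clusters 15 and 24, LAX3 in cluster 5, LAX4 in cluster 24, and LAX5 in clusters 1 and 4.

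LAX1 was the broad copy. It had UMIs in every cluster of both libraries, as LAX3 did at much lower levels in most of them, and held more AUX/LAX UMIs than any other copy in 24 of 27 clusters in both. Its level ranged from 18.4 CPM (replicate 1) and 14.5 CPM (replicate 2) in cluster 6 to 352 and 513 CPM in cluster 1, which was highest by the mean of the libraries, around cluster medians of 96.3 and 99.4 CPM. The range of its fold changes over clusters, 4.51 on the log2 scale, was close to the median over all genes tested (4.48). In cluster 1 its log2 fold change was 2.39 ± 0.166 (SE, adjusted p = 4.29e-15), in a contrast where 30.6% of all genes were called higher. The SE after an edgeR fold change is its size divided by the square root of the F value, not an SE given by the fit. DESeq2's own SE for LAX1 in cluster 1 was larger, at 0.231. Clusters 20 (267 and 518 CPM), 15 (159 and 311 CPM), 18 (211 and 252 CPM), 4 (217 and 194 CPM) and 8 (172 and 221 CPM) came next, each overlapping its neighbour in the order over the libraries, and LAX1 was called higher in all of them. In cluster 4 its log2 fold change was 1.41 ± 0.187 (adjusted p = 4.33e-08). The protoplasting-induced genes described below were not among the genes used for the clustering. With them left out of the counts too and the cells clustered again, the cluster nearest to cluster 4 (Jaccard index of their cells 0.3405) had a LAX1 difference of -0.90 (adjusted p = 0.0109). The direction thus turned in a cluster that shared only part of its cells.

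LAX1 was lowest in cluster 6, with a log2 fold change of -2.12 ± 0.273 (adjusted p = 2.15e-08). LAX1 was in 19.5% and 8.89% of the cells of cluster 6, against 52.7% and 37.2% of all other cells, and in 3.81% and 2.46% of its cells after thinning. Cluster 6 was not shallow, with medians of 12863 and 5451 UMIs per cell against 8065 and 3800 UMIs in the whole libraries. The remaining AUX/LAX copies were also low there, with no copy other than LAX1 above 7.61 CPM in either library.

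LAX3 was concentrated in a single cluster. In cluster 5 it reached 1016 and 1234 CPM in replicates 1 and 2, from 6707 and 4642 UMIs, against 7.82 and 18.5 CPM in all other cells. That is 129.9-fold and 66.8-fold over the rest of each library. Cluster 5 held 3.53% and 4.64% of all UMIs but 82.6% and 76.5% of the LAX3 UMIs. Its log2 fold change against the mean of the other clusters was 6.58 ± 0.136 (adjusted p = 1.71e-30), in a contrast where 18.6% of genes were called higher. LAX3 ranked first of 22469 genes there when genes were ordered by the smaller of the fold differences in the libraries, taken with 5 CPM added, and 16th of 18013 by the fitted log2 fold change. It was not among the genes used for the clustering.

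Within cluster 5, LAX3 was in most cells. It was seen in 81.3% of 557 cells (95% interval 77.8% to 84.5%) and in 73.0% of 901 cells (70.0% to 75.9%), and in 73.3% of each after thinning to 2000 UMIs. In cluster 25, where LAX3 had its lowest fold change, it was in 3.50% of 143 cells and 2.17% of 46 cells, at medians of 35175 and 16447 UMIs per cell, against 6600 and 2661 UMIs in cluster 5. The cells of cluster 5 were not alike in their LAX3 counts. These counts were not thinned, so differences in depth between cells enter them. The lower and upper quartiles were 1 and 16 LAX3 UMIs per cell in replicate 1 and 0 and 6 in replicate 2, with up to 96 and 61 in a cell. The tenth of cells with most LAX3 held 44.7% and 47.0% of the cluster's LAX3 UMIs.

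LAX3 was next highest in cluster 20 (174 and 253 CPM) and cluster 24 (107 and 178 CPM), whose ranges over the libraries overlapped, and then in cluster 27 (75.5 and 84.0 CPM). These clusters stood apart from cluster 5 and were called higher, with log2 fold changes of 3.70 ± 0.229, 3.45 ± 0.210 and 2.50 ± 0.362 (adjusted p = 8.65e-16, 2.53e-16 and 1.07e-06). Set against the sum of all other cells, which includes cluster 5, the log2 differences in clusters 20 and 24 were smaller, at 1.52 and 1.33, and still called. Clusters 5, 20 and 24 together held 86.6% and 83.7% of the LAX3 UMIs. In 12 clusters LAX3 was called lower. The lowest fold change was in cluster 25, with 6 and 1 UMIs and a log2 fold change of -3.05 ± 0.596 (adjusted p = 7.89e-05).

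LAX2 was high in a pair of clusters. In cluster 24 it had 162 and 86 UMIs (73.6 and 76.2 CPM), and in cluster 15 it had 121 and 32 UMIs (68.1 and 75.4 CPM). The levels of these clusters overlapped. All other cells together had 2.44 and 2.27 CPM. The log2 fold change was 5.02 ± 0.223 in cluster 24 (adjusted p = 1.71e-20, with 14.1% of genes called higher) and 4.66 ± 0.259 in cluster 15 (adjusted p = 3.36e-17, 15.9%). The 2 clusters held 2.13% and 1.91% of all UMIs but 38.8% and 39.5% of the LAX2 UMIs.

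LAX2 was seen in a minority of the cells of either cluster. It was in 28.8% and 14.4% of the cells of cluster 24 and in 11.4% and 4.08% after thinning. In cluster 15 it was in 15.8% and 14.3% of cells, and in 15.1% and 13.8% after thinning, in a cluster whose median depth was 0.293 and 0.473 of the library median. The tenth of cells with most LAX2 held 75.9% and 93.0% of the LAX2 UMIs of cluster 24, and 77.7% and 81.2% of those of cluster 15. These are unthinned counts. In replicate 2 only 22 of the 153 cells of cluster 24 had a LAX2 UMI, so a high share was bound to follow there. Cluster 20 came next, at 15.5 and 28.5 CPM (log2 fold change 2.93 ± 0.385, adjusted p = 1.32e-07), and stood apart from clusters 15 and 24. The highest LAX2 count of any cell, 42 UMIs, was in cluster 10 of replicate 1, whose cells held 49 LAX2 UMIs in all.

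Most LAX4 UMIs were counted in cluster 24. There it had 38 UMIs in 22 of 132 cells of replicate 1 and 9 UMIs in 8 of 153 cells of replicate 2 (17.3 and 7.98 CPM). All other cells together held 10 and 5 UMIs (0.0541 and 0.0625 CPM). Cluster 24 thus held 79.2% of the LAX4 UMIs of replicate 1 (95% interval 65.01% to 89.5%) and 64.3% of those of replicate 2 (35.1% to 87.2%), with 1.18% and 1.39% of all UMIs. LAX4 had no UMI in either library in 20 of 27 clusters. In cluster 1, where 0 UMIs were counted, the limit set at 3 UMIs was 0.299 and 0.492 CPM. The limit was higher in clusters with fewer UMIs, at 2.996 and 13.55 CPM in cluster 22 and 6.293 and 8.995 CPM in cluster 27. In replicate 2 the limits of clusters 22 and 27 lay above the 7.98 CPM of cluster 24. Counts of 0 there thus cannot exclude a level like that of cluster 24 in replicate 2.

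The fitted contrast called LAX4 higher in cluster 24 (adjusted p = 2.95e-09, with 14.1% of genes called higher). LAX4 passed the filter on low counts mainly through its counts in that cluster, so the call is not separate support for a high level there. The size of that fit depends on how zeros are handled and is not read as a fold. DESeq2's Wald test on the same sums did not call it (adjusted p = 0.551). LAX4 was also called higher in clusters 20 (2 UMIs in each library) and 5 (4 and 2 UMIs), which with cluster 24 held 44 of 48 and 13 of 14 of its UMIs. DESeq2 did not call it in cluster 20 either (adjusted p = 0.717).

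LAX5 was highest in clusters 1 and 4. It had 322 and 336 UMIs in cluster 1 (32.1 and 55.1 CPM) and 314 and 158 in cluster 4 (38.7 and 37.3 CPM), against 2.20 and 3.22 CPM in all other cells. Clusters 1 and 4 overlapped in level, and cluster 18 stood apart below them with 59 and 60 UMIs (12.49 and 16.99 CPM). The log2 fold change was 4.14 ± 0.203 in cluster 1 (adjusted p = 1.48e-19) and 4.102 ± 0.211 in cluster 4 (adjusted p = 3.81e-19, with 30.2% of genes called higher). In cluster 18 it was 2.48 ± 0.278 (adjusted p = 3.82e-09). Clusters 1 and 4 held 9.70% and 12.7% of all UMIs but 63.1% and 68.4% of the LAX5 UMIs.

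LAX5 was seen in 21.5% and 23.8% of the cells of cluster 1 and in 21.2% and 20.5% of those of cluster 4, against 3.27% and 2.27% of all other cells. Thinned to 2000 UMIs, the shares were 7.33% and 8.52% in cluster 1 and 6.90% and 8.67% in cluster 4. No cell held more than 6 LAX5 UMIs.

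LAX5 is also 1 of the 821 genes that the study lists as induced by protoplasting, the digestion that frees the cells, and none of the other 4 copies is on that list. The other listed genes made up 15.8% and 18.7% of the UMIs of cluster 1 and 17.3% and 20.9% of those of cluster 4. Across clusters the medians were 3.14% and 3.01%. Clusters 4 and 1 ranked first and second in both libraries, so LAX5 was highest where the listed genes took the largest share of the UMIs. Over the 27 clusters, the correlation of log2(CPM + 5) of LAX5 with the log2 share of the other listed genes was 0.72 and 0.69, while the rank correlation was 0.42 and 0.27. The clusters of a library share its depth and its digestion, and no undigested roots were analysed here. The part of protoplasting in the LAX5 level was not tested.

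**Figure D2:**
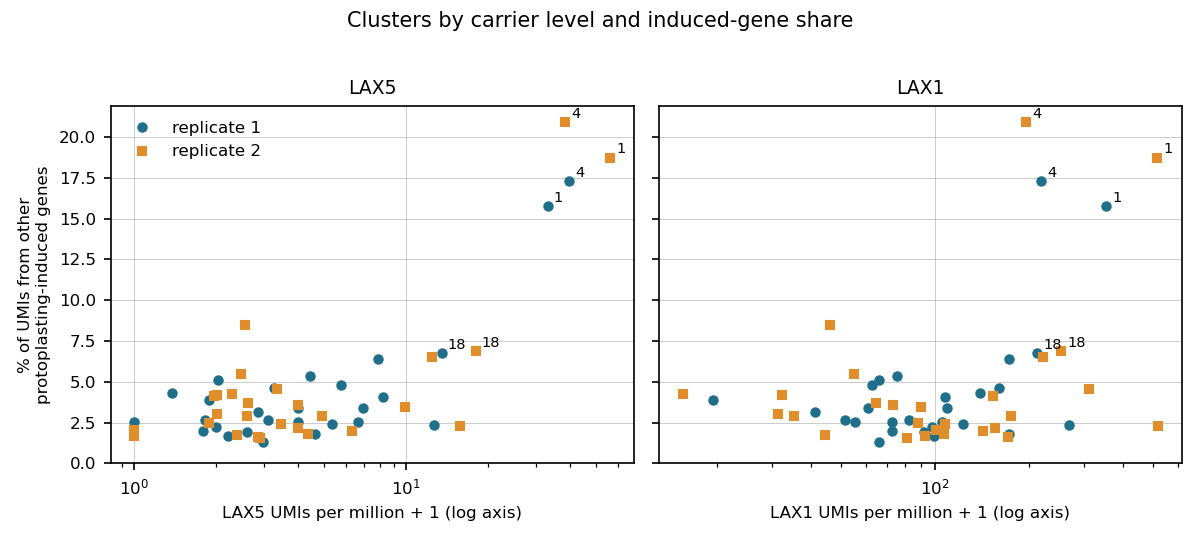
Share of a cluster's UMIs from protoplasting-induced genes other than LAX5 (percent) against the level of LAX5 (left) and LAX1 (right), on log axes of CPM plus 1, with 1 point per cluster and library. Clusters 1 and 4 stood at 15.8% to 20.9%, above all others, and had the highest LAX5 levels, while LAX1 was also high in clusters with small shares.

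In the fit reported, cluster 20 was the only cluster in which all 5 copies were called higher, in a contrast where 17.6% of genes were. It held 102 cells of replicate 1 and 397 of replicate 2, at median depths of 2748 and 1654 UMIs. LAX1 and LAX3 carried most of the signal there, with 138 and 490 UMIs of LAX1 and 90 and 239 of LAX3. LAX2 had 8 and 27 UMIs and LAX5 had 6 and 14 (log2 fold change 1.73 ± 0.485, adjusted p = 0.00503). The LAX4 call rested on 2 UMIs in each library, under the limit of 3 UMIs. DESeq2's Wald test did not call LAX4 in cluster 20 (adjusted p = 0.717), so the call of all 5 copies depends on that fit. When replicate 2 was clustered alone, a close match to this cluster was found (Jaccard index 0.843), where the log2 differences were 2.57 for LAX1, 3.00 for LAX2, 3.84 for LAX3, 1.37 for LAX4 and 1.61 for LAX5. When replicate 1 was clustered alone, the nearest cluster had a Jaccard index of 0.109, and the log2 differences of LAX1, LAX3, LAX4 and LAX5 in that nearest cluster were -0.39, -0.12, -0.13 and -0.45, with 0.86 for LAX2. The call of all 5 copies did not hold under every setting. At a clustering resolution of 0.5, clusters 20 and 5 had the same nearest cluster of 1645 cells (Jaccard index 0.300 and 0.580). The values given for cluster 20 at that resolution are thus those of a larger, merged cluster. LAX2 was not called at a clustering resolution of 0.5 (0.65, adjusted p = 0.222), LAX5 was not called at that resolution (-0.011), with the cluster set against the sum of all other cells (0.51, adjusted p = 0.422) or with unbalanced neighbours (0.86, adjusted p = 0.175), and LAX4 was not called against that sum (adjusted p = 0.0801).

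In the exodermis-like cluster, the cell type that the study followed, LAX1 was low. LAX3 was above its cluster medians there but was not called. The cluster held 111 and 300 cells with medians of 2387 and 1519 UMIs. LAX1 had 39 and 31 UMIs there (61.7 and 31.2 CPM) and was called lower, with a log2 fold change of -1.40 ± 0.303 (adjusted p = 0.000354), where 11.9% of genes were called lower. Clustered without replicate 2, the LAX1 difference was -0.15, and at a clustering resolution of 0.5 it was -0.33 and not called. The other copies were not called. LAX3 had 8 and 26 UMIs (12.7 and 26.2 CPM, against cluster medians of 8.71 and 11.6 CPM) and LAX5 had 3 and 1. That LAX3 level was 0.292 and 0.350 of its level over each library, and the sign of its difference reversed in 6 of 15 alternatives. LAX2 had 0 and 1 UMIs and LAX4 had none, at depths where 3 UMIs equal 4.75 and 3.02 CPM. A count of 0 there thus cannot exclude a level up to that limit.

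The division of AUX/LAX UMIs between copies changed with the cluster. In cluster 5, LAX3 held 91.0% and 87.7% of them and LAX1 8.77% and 12.1%, whereas over the libraries LAX3 held 27.0% and 33.3%. The LAX1 level itself was not low in cluster 5, at 97.99 and 170 CPM, so the high LAX3 share came with a LAX1 level close to or above the cluster medians. In cluster 24 the UMIs were spread over 4 copies, with 45.9% and 34.5% from LAX1, 28.8% and 43.6% from LAX3, 19.8% and 18.7% from LAX2, and 4.63% and 1.95% from LAX4. In cluster 15, LAX1 and LAX2 held 66.6% and 77.6%, and 28.5% and 18.8%. In clusters 1 and 4, LAX1 and LAX5 together made up nearly all, with LAX5 at 8.25% and 9.53% in cluster 1 and 14.7% and 15.7% in cluster 4. LAX3 also held most in the small cluster 27, at 58.1% and 51.9%.

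**Figure D3:**
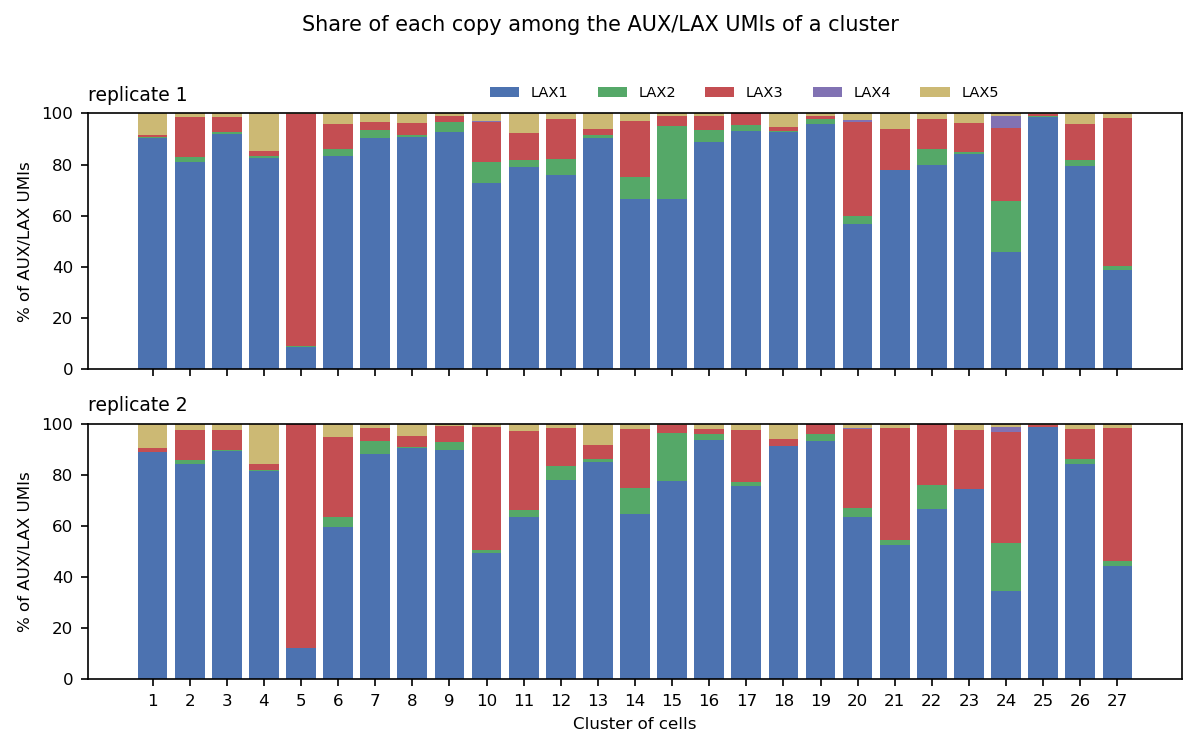
Share of each copy among the AUX/LAX UMIs of a cluster (percent, stacked to 100), for replicate 1 above and replicate 2 below. LAX1 held the largest share in 24 clusters of both libraries and LAX3 in clusters 5 and 27. In cluster 24 the larger share was that of LAX1 in replicate 1 and of LAX3 in replicate 2.

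The pattern over clusters grouped the copies in a similar way. LAX1 and LAX5 had a Pearson correlation of log2(CPM + 5) across the 27 clusters of 0.68 and 0.66 in replicates 1 and 2. LAX2 and LAX4 had 0.67 and 0.66, and LAX3 and LAX4 had 0.49 and 0.52. The pairs LAX2 with LAX5 and LAX3 with LAX5 were at -0.05 and -0.04, and at -0.03 and -0.03. The clusters of a library share its cells and depth, so these values describe the libraries only. LAX4 had no UMI in either library in 20 of the 27 clusters, and 38 and 9 of its 48 and 14 UMIs were in cluster 24. Every correlation of LAX4, with other copies and with other genes, thus rests mainly on that cluster. Among the genes tested, the closest to LAX3 was Solyc08g083220 (0.95 in each library) and the closest to LAX4 was Solyc10g049580 (0.99 and 0.96). The 3 closest genes averaged between 0.71 and 0.76 for LAX1, 0.79 and 0.91 for LAX2, and 0.88 and 0.89 for LAX5. The gene closest to LAX4 was among those used for the clustering, and the one closest to LAX3 was not. The files do not pair these identifiers with names.

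Of all kept cells, a minority showed more than 1 copy. Of the kept cells, 44.2% and 32.2% had exactly 1 copy, 11.7% and 10.6% had 2, and 0.984% and 0.567% had 3. Cells with none made up 43.0% and 56.6%, and no cell had all 5. The shares include the cells with none, so among cells with a copy the share with 2 or more was larger. A copy at a low level can be missed in a cell at these depths, so an unseen copy may still be present. At 2000 UMIs per cell, 1.98% and 3.72% had 2 copies.

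LAX5 was mostly seen together with LAX1. Of the cells with a LAX5 UMI, 84.3% (95% interval 81.6% to 86.7%) and 80.8% (77.3% to 84.1%) also had LAX1, against 48.6% and 32.5% of the cells without LAX5. At 2000 UMIs per cell the shares were 41.1% and 46.6%, against 20.7% and 20.6%. Within a cluster most of that difference was not seen at matched depth. Within cluster 1 the unthinned shares were 93.4% and 90.0% against 71.0% and 69.5%, but at 2000 UMIs per cell they were 47.4% (36.0% to 59.1%) and 57.4% (44.1% to 70.0%) against 46.2% and 60.6%. Within cluster 4 the thinned shares were 37.9% (25.5% to 51.6%) and 36.1% (20.8% to 53.8%) against 31.8% and 25.9%, and each interval holds the share of the cells without LAX5.

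LAX3 and LAX1 gave a like picture in cluster 5 of replicate 1 only. At 2000 UMIs per cell, LAX1 was seen in 16.7% of the LAX3 cells of replicate 1 (12.9% to 21.2%) against 14.8% of the cells without LAX3. In replicate 2 it was in 28.5% (24.2% to 33.1%) against 12.5% (7.70% to 18.8%).

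Over all cells, LAX2 and LAX5 were rarely seen in the same cell. Of the LAX5 cells, 12 of 820 and 1 of 543 had LAX2 (1.46% and 0.184%), against 3.34% and 1.84% of the cells without LAX5. These shares are unthinned. Most LAX5 UMIs lay in clusters 1 and 4, where LAX2 was in 0.587% and 0.414%, and in 1.00% and 0.353%, of the cells. Whether LAX2 and LAX5 avoid each other within a cluster was not tested. LAX4 cells, in contrast, more often had LAX2. It was in 18 of 30 in replicate 1 and 4 of 13 in replicate 2, against 3.08% and 1.71% of the cells without LAX4. Within cluster 24, 15 of the 22 LAX4 cells of replicate 1 had LAX2 (68.2%, 95% interval 45.1% to 86.1%), against 20.9% of the cells without LAX4, and 4 of the 8 in replicate 2, against 12.4%. After thinning, 2 cells of that cluster in replicate 1 and none in replicate 2 had LAX4, so matched depth could not be read for this pair.

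**Figure D4:**
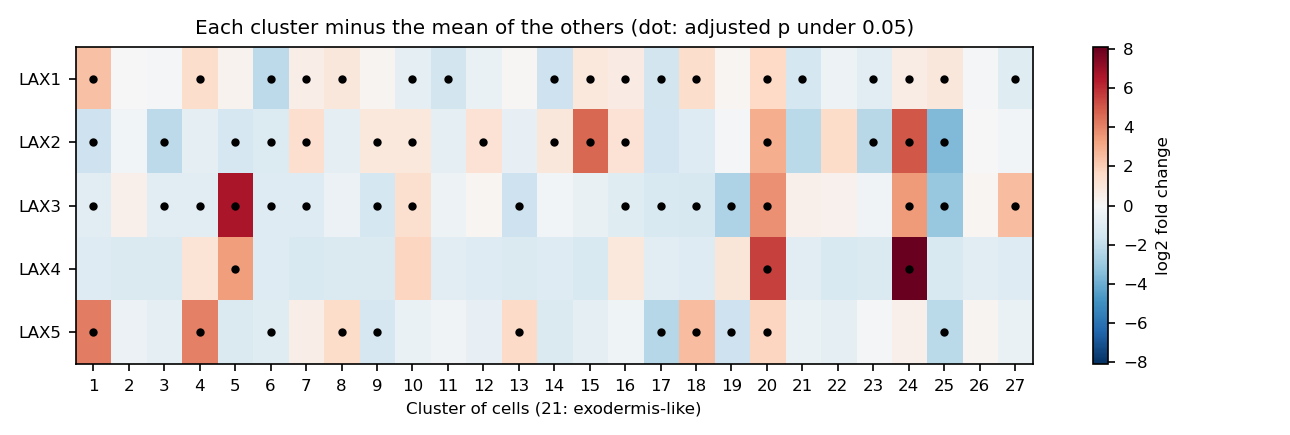
Log2 fold change (colour) of each copy in each cluster against the mean of the other clusters, from the edgeR fit, with a dot where the adjusted p was under 0.05. LAX3 in cluster 5 and LAX4 in cluster 24 had the largest positive values, at 6.58 and 8.03, and LAX4 values rest on few UMIs.

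The efflux side of auxin transport was looked at through 10 identifiers fixed as PIN carriers, of which 8 passed the filter on low counts. No source used here pairs them with names, though each lies on the chromosome that RefSeq gives for the PIN gene it was fixed as. In cluster 5, the LAX3 cluster, 5 of the 8 were called higher and 1 lower, where 18.6% and 12.7% of all genes were, with a median log2 fold change of 3.29 against -0.02 over all genes. In cluster 20, 4 were higher and 1 lower (17.6% and 15.2% of genes), with a median of 1.88. In cluster 15, 4 were higher and 0 lower (15.9% and 14.0%), and in cluster 24, 3 and 1 (14.1% and 11.1%), with medians of 0.40 and 0.62. In cluster 1, 2 were higher and 2 lower (30.6% and 18.3%), and in cluster 4, 3 and 1 (30.2% and 22.5%), with medians of -0.77 and -0.53. Both identifiers called higher in cluster 1 are on the list of protoplasting-induced genes, and both were also called higher in cluster 4. The remaining identifier called higher in cluster 4 had 0 and 1.18 CPM, and a library went against that call. None was called in the exodermis-like cluster, where 18.6% of genes were higher and 11.9% lower.

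Single identifiers of that list were high beside single influx carriers. Solyc04g056620 had 206 and 252 CPM in cluster 4 (log2 fold change 6.22 ± 0.173, adjusted p = 1.86e-27) and 134 and 182 CPM in cluster 1, both LAX5 clusters, and its correlation with LAX5 over the 27 clusters was 0.88 and 0.87. Like LAX5 it is on the protoplasting list. Solyc05g008060 had 1130 and 744 CPM in cluster 15, which was high in LAX2 (log2 fold change 5.84 ± 0.156, adjusted p = 1.02e-26), and 138 and 162 CPM in cluster 5. It was lower in cluster 25, with 1.33 and 3.83 CPM (log2 fold change -2.78 ± 0.548, adjusted p = 8.90e-05). Solyc01g068410 was called higher in cluster 17 (log2 fold change 8.07 ± 0.415, adjusted p = 6.67e-14), with 5.31 and 90.5 CPM, levels that lay far apart. Among the pairs called lower with the same direction in both libraries, Solyc10g078370 and Solyc04g007690 had the lowest fold changes, both in cluster 18, each with 0.212 CPM in replicate 1 and none in replicate 2 (adjusted p = 0.00323 and 2.30e-04).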

How the data were processed

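Per the file headers and the labels, the authors made the deposited UMI counts with cellranger 6.0.1 from 10x v3 libraries of pooled roots. The 2 samples form 1 group. Cells with at least 500 UMIs and at most 1% organelle UMIs, and genes in more than 3 cells, were kept (22634 cells and 22469 genes). Cells were clustered with leidenalg 0.10.2 (resolution 1) on 2000 variable genes without LAX, PIN or protoplasting-induced genes, scaled within each library, with 35 components and 10 neighbours from each library. The scaling and balanced neighbours were chosen after seeing that genes scaled over both libraries left 2291 cells of 1 library in 4 clusters with under 10 cells of the other. Counts summed by cluster and library were tested with edgeR 4.0.16 (TMM, filterByExpr, library as a block; threshold 0.05). The library number was a block because all clusters of a library come from the same cell suspension. The class contrasts reduced to the exodermis-like cluster, and contrasts of each cluster were added after the files were seen. The fit was tested on simulated data. Scrublet called 1 and 0 cells doublets, which is not taken as working, so doublets stayed in and removing the 5% of cells with the highest scores was an alternative. All 5 copies are described in full. Identifiers fixed as PIN carriers are named by the 3 largest changes each way, and of the 3 most similar genes per copy only the closest to LAX3 and LAX4 are named, since the files give no names. Members and lists were chosen with earlier results of these data known. Other auxin genes were not looked up by description, as the feature tables give identifiers only. DESeq2 1.42.0 was an alternative.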

Additional observations from a re-analysis of the deposited data

How the results depend on the processing

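Of 103 alternative values for the clusters where a copy was highest (LAX1 in cluster 1, LAX2 in 24 and 15, LAX3 in 5, LAX4 in 24, LAX5 in 1 and 4), 102 kept direction and call. The exception was LAX4 in cluster 24 under DESeq2's Wald test (7.20, SE 7.65, adjusted p = 0.551). All values below are log2 differences unless named otherwise, and their causes were not tested. With each library clustered alone, without a test, the ranges were 1.96 to 2.66 for LAX1 in cluster 1, 4.14 to 4.80 and 1.95 to 3.23 for LAX2 in clusters 24 and 15, 6.46 to 6.50 for LAX3 in cluster 5, 2.902 to 4.224 for LAX4 in cluster 24, and 2.51 to 3.67 and 3.34 to 3.37 for LAX5 in clusters 1 and 4. In cluster 20 they were -0.39 to 2.57 for LAX1, -0.12 to 3.84 for LAX3, -0.13 to 1.37 for LAX4 and -0.45 to 1.61 for LAX5. LAX1 in cluster 4 was -0.90 without protoplasting-induced genes, and LAX5 in cluster 20 was -0.011 at a resolution of 0.5. In the exodermis-like cluster, LAX3 was not called in the analysis reported and its sign was unstable, at -0.73 at a resolution of 0.5, -0.15 with another seed, -0.23 with at least 1000 UMIs per cell, -0.25 without the highest doublet scores, -1.66 with 2 sums per library and -0.020 with genes scaled over both libraries. LAX5 there was 0.64 at a resolution of 0.5. The number of copies called in that cluster, 1 as reported, was 0 at a resolution of 0.5 and 2 with 2 sums per library. Thinned to 2000 UMIs, LAX1 held 58.5% of the family UMIs, LAX3 35.2%, LAX5 4.30% and LAX4 0.0578%, and 43.9% of LAX5 cells had LAX1, against 82.6% unthinned. Leaving out a library gave 61.1% to 67.1% for LAX1, 27.0% to 33.3% for LAX3, 3.35% to 3.96% for LAX5, 1.64% to 2.43% for LAX2, 0.0767% to 0.160% for LAX4 and 80.8% to 84.3% for the LAX5 cells. Without the replicate block LAX3 in cluster 5 was 6.58 and no call changed. LAX5 had no value without the induced genes, and no cluster held over 80% of its cells from 1 library, so leaving such clusters out was not run. Clusters 1, 4, 15 and 20 had a Jaccard index under 0.5 with the nearest cluster of at least 1 alternative each, and cluster 5 had 0.580 to 0.766 over all of them. At a resolution of 0.5, clusters 1 and 4 had the same nearest cluster, so the LAX5 value of 4.215 there enters the 103 values for both. LAX4 rests on 48 and 14 UMIs.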
